A study of Homo sapiens with 18 samples.

Results

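The forkhead genes other than FOXA1 were examined as possible neighbours of TLE3 and FOXA1 binding in 3 breast cancer cell lines. They are 37 protein-coding genes with a FOX symbol, chosen by name and not by binding, of 19970 protein-coding genes in all. Chromatin immunoprecipitation with sequencing (ChIP-seq) against TLE3 and against FOXA1 had been done in T47D, an estrogen receptor-positive luminal line, in MDA-MB-453, a luminal line that expresses the androgen receptor, and in SKBR3, a line with amplified ERBB2. Each line had 2 libraries labelled as biological replicates per factor, and the labels name no treatment. Cells for TLE3 had been crosslinked with an additional agent before formaldehyde, and those for FOXA1 with formaldehyde, so that factor and fixation cannot be told apart. The 12 peak lists hold 1134209 peaks, and the lines' identity could not be checked from them because peaks measure no expression.

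Forkhead proteins bind DNA through a winged-helix domain, and FOXA1 is a pioneer factor that opens chromatin for hormone receptors in luminal cells. Several other members bind closely related sequences. TLE3 is a Groucho-type corepressor without a DNA-binding domain of its own, and some forkhead proteins are known to recruit Groucho corepressors. The question here was which forkhead genes carry sites of either factor at their own loci.

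A site is a region with a peak in both replicates of a line and factor. A site was given to a gene when its centre lay in the gene body or within 50 kb of it. The members' windows held a median of 1 other protein-coding gene, so a site in a flank need not belong to the gene named. SKBR3 TLE3 replicate 2 stood apart. Its list of 94363 peaks overlapped 33.9% of the 21149 peaks of replicate 1, and only 7.54% of its own peaks were overlapped by replicate 1. SKBR3 TLE3 sites are therefore given from replicate 1 alone, with the count for both replicates beside them where it differs at a gene described. The other TLE3 lists held up to 61391 peaks, and the FOXA1 lists 107598 to 188029. The lists give no reads, so depth is unknown and a gene without a peak is not shown to be unbound.

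Of the 37 genes, 27 have a RefSeq promoter window (250 bases before to 50 after a start), with 38 windows in all. FOXP1, a repressor of the FOXP group, was the one member with a start under a peak in all 11 libraries other than SKBR3 TLE3 replicate 2. A start of FOXJ3, a broadly expressed activator, lay under a peak in 10 of these 11 libraries. Those of FOXO3, a transcription factor restrained by insulin and AKT signalling, and of FOXP2, a repressor known from speech development, did so in 9. Over all genes, 2.27% of 34961 windows were under a peak in 9 or more libraries and 0.546% in all 11. The 250 bases before these 3 starts are shown because they are the member promoters that peaks of both factors covered most often beside that of FOXP1. The fourth sequence lies before an internal start of FOXP1 and is shown because it holds the forkhead motif TGTTTAC, in capitals. Sequences are from RefSeq (GRCh38.p14) and read 5′ to 3′ on the gene's strand. They lie at chr1:42335881-42336130 (minus strand) for FOXJ3, chr6:108559575-108559824 (plus strand) for FOXO3, chr7:114414565-114414814 (plus strand) for FOXP2 and chr3:71245078-71245327 (minus strand) for the internal start of FOXP1.
FOXJ3: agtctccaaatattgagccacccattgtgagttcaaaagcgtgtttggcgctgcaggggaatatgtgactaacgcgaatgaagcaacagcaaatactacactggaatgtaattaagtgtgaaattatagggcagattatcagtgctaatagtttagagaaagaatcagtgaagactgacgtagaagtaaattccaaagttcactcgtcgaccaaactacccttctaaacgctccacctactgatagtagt
FOXO3: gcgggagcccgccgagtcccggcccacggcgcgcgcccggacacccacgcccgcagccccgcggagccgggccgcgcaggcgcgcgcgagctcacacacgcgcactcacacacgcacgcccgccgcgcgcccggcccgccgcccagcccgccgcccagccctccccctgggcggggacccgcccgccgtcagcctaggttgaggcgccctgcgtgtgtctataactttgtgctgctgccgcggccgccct
FOXP2: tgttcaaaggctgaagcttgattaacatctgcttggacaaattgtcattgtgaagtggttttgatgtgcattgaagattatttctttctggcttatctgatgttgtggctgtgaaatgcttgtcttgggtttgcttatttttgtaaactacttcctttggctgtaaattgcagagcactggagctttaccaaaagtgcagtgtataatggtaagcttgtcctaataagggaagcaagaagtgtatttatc
FOXP1 internal start: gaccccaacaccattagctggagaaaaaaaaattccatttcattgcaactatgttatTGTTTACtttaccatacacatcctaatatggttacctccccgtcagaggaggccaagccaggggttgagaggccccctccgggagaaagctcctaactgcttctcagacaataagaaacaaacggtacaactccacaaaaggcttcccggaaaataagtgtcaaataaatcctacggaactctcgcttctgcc

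The motifs searched were TGTTTAC and TGTTTGC on both strands, which cannot both match at 1 position of 1 strand, though matches on opposite strands can overlap. Of the 38 member windows, 2 held a match (5.26%), against 7.16% of all windows. They were the internal FOXP1 start, with FOXA1 peaks in 4 of 6 libraries and no TLE3 peak in 5, and the start of FOXO4, with FOXA1 peaks in 6 of 6 libraries and no TLE3 peak in 5. In FOXO4, another factor under AKT control, the match lay after the start. The starts of FOXJ3, FOXO3 and FOXP2 printed above had FOXA1 peaks in 6 of 6 libraries each, and TLE3 peaks in 4, 3 and 3 of 5, without either motif. Of the 38 member windows, 19 lay under no peak of the 11 libraries, beside 54.0% of all windows. For 14 of the 27 genes this held for every window of the gene, and the share over all genes was not counted.

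Nearly all forkhead genes had a FOXA1 site nearby, and TLE3 sites were at about as many of them as of other genes. TLE3 sites were at 28 members in T47D (75.7%), against 74.7% of the 19933 other protein-coding genes. They were at 20 in MDA-MB-453 (54.1%), against 55.3%, and at 20 in SKBR3 replicate 1 (54.1%), against 57.3%. With both SKBR3 replicates required, 14 had a TLE3 site (37.8%), against 35.2% of the other genes (35.3% of all genes). In SKBR3 replicate 2 alone, 36 members had a TLE3 peak (97.3%), against 96.5%. FOXA1 sites were at 35 members in T47D (94.6%), against 95.0% of the other genes (95% of all genes). In MDA-MB-453 all 37 had one, against 95.1%, and in SKBR3 34 had one (91.9%), against 89.8%. In every line the share of members was near that of other genes.

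**Figure D1:**
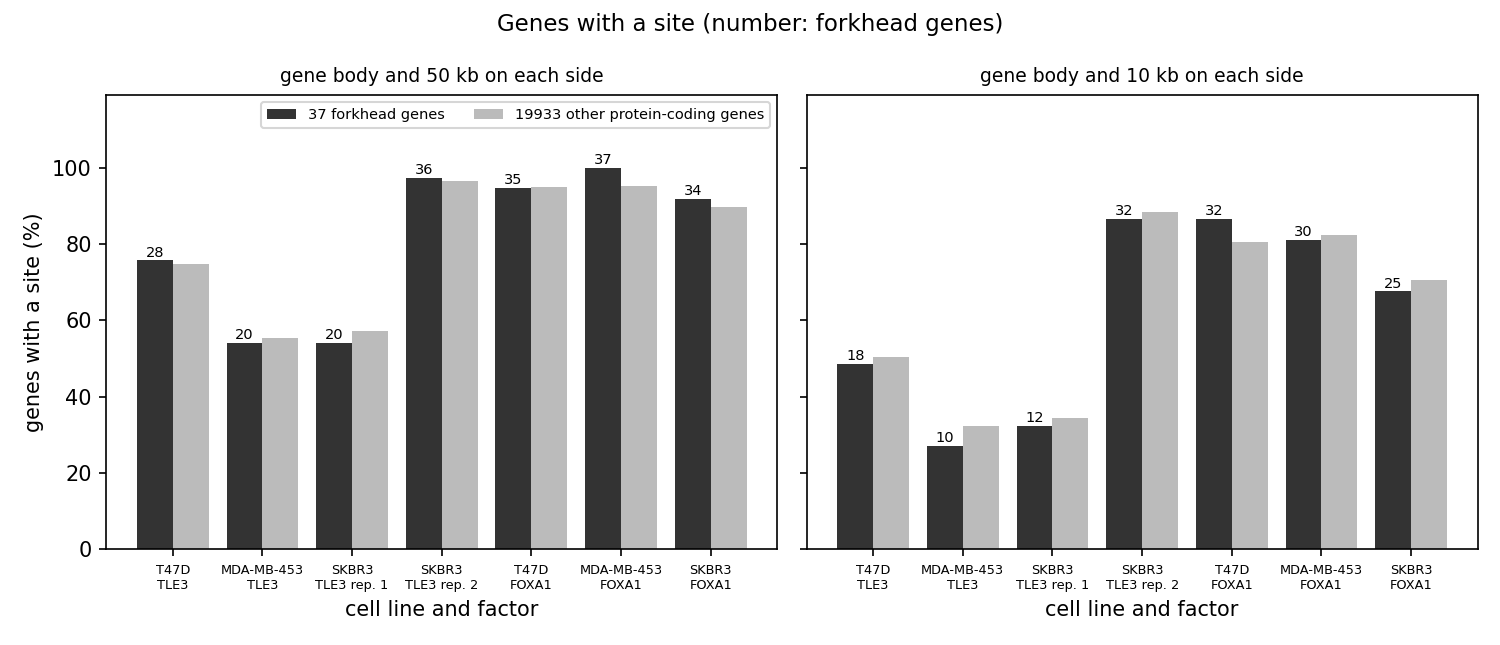
Percent of genes with a site (vertical axis) in each line and factor (horizontal axis), for the 37 forkhead genes (dark bars, number above) and the 19933 other protein-coding genes (grey bars), with windows of 50 kb (left) and 10 kb (right) on each side of the gene body. The dark and grey bars of each pair are of like height, with 28 members against 74.7% of other genes for T47D TLE3 at 50 kb.

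With the window narrowed to 10 kb, TLE3 sites were at 18 members in T47D (48.6%), beside 50.3% of all genes. They were at 10 in MDA-MB-453 (27.0%), beside 32.3%, and at 12 in SKBR3 replicate 1 (32.4%), beside 34.3%. FOXA1 sites within 10 kb were at 32 members in T47D (86.5%), beside 80.4% of all genes, at 30 in MDA-MB-453 (81.1%), beside 82.4%, and at 25 in SKBR3 (67.6%), beside 70.7%. Per length of window, the median member had 0.983 TLE3 sites per 100 kb in T47D, 0.762 in MDA-MB-453 and 0.529 in SKBR3 replicate 1. The other genes' medians were 0.968, 0.549 and 0.638. For FOXA1 the members' medians were 4.64 in T47D, 4.57 in MDA-MB-453 and 3.05 in SKBR3, and the other genes' were 4.06, 4.79 and 3.06.

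Gene length parted the members. Their median body was 6028 bp, against 24217 bp for the other genes, and 25 of 37 were shorter than the other genes' median. All 12 longer members had a TLE3 site in T47D, against 81.4% of other long genes. In MDA-MB-453 10 of these 12 had one (83.3%), against 66.4%, and in SKBR3 replicate 1 10 of 12 (83.3%), against 65.5%. Of the 25 shorter members, 16 had a TLE3 site in T47D (64%), against 68.0% of other short genes. In MDA-MB-453 and in SKBR3 replicate 1 there were 10 each (40%), against 44.2% and 49.1%. The split at the median was described without a test.

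With SKBR3 taken from replicate 1, TLE3 sites were at 15 members in all 3 lines (40.5%), against 39.7% of other genes, and at 7 members in none (18.9%), against 16.2%. With both SKBR3 replicates required, 12 members had one in all 3 lines (32.4%), against 25.5%. The 7 without any were FOXC2, FOXD3, FOXF1, FOXF2, FOXO4, FOXP3 and FOXR2. FOXA1 sites were at 33 members in all 3 lines (89.2%), against 87.7% of other genes. The exceptions were FOXH1 and FOXP3, without one in SKBR3, FOXI1, without one in T47D, and FOXR2, with sites in MDA-MB-453 alone. Some windows overlap, so their sites count for both genes: FOXE3 and FOXD2 lie 19992 bp apart on chromosome 1, FOXF1, FOXC2 and FOXL1 follow each other on chromosome 16, and FOXQ1 and FOXF2 lie 74818 bp apart on chromosome 6.

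**Figure D2:**
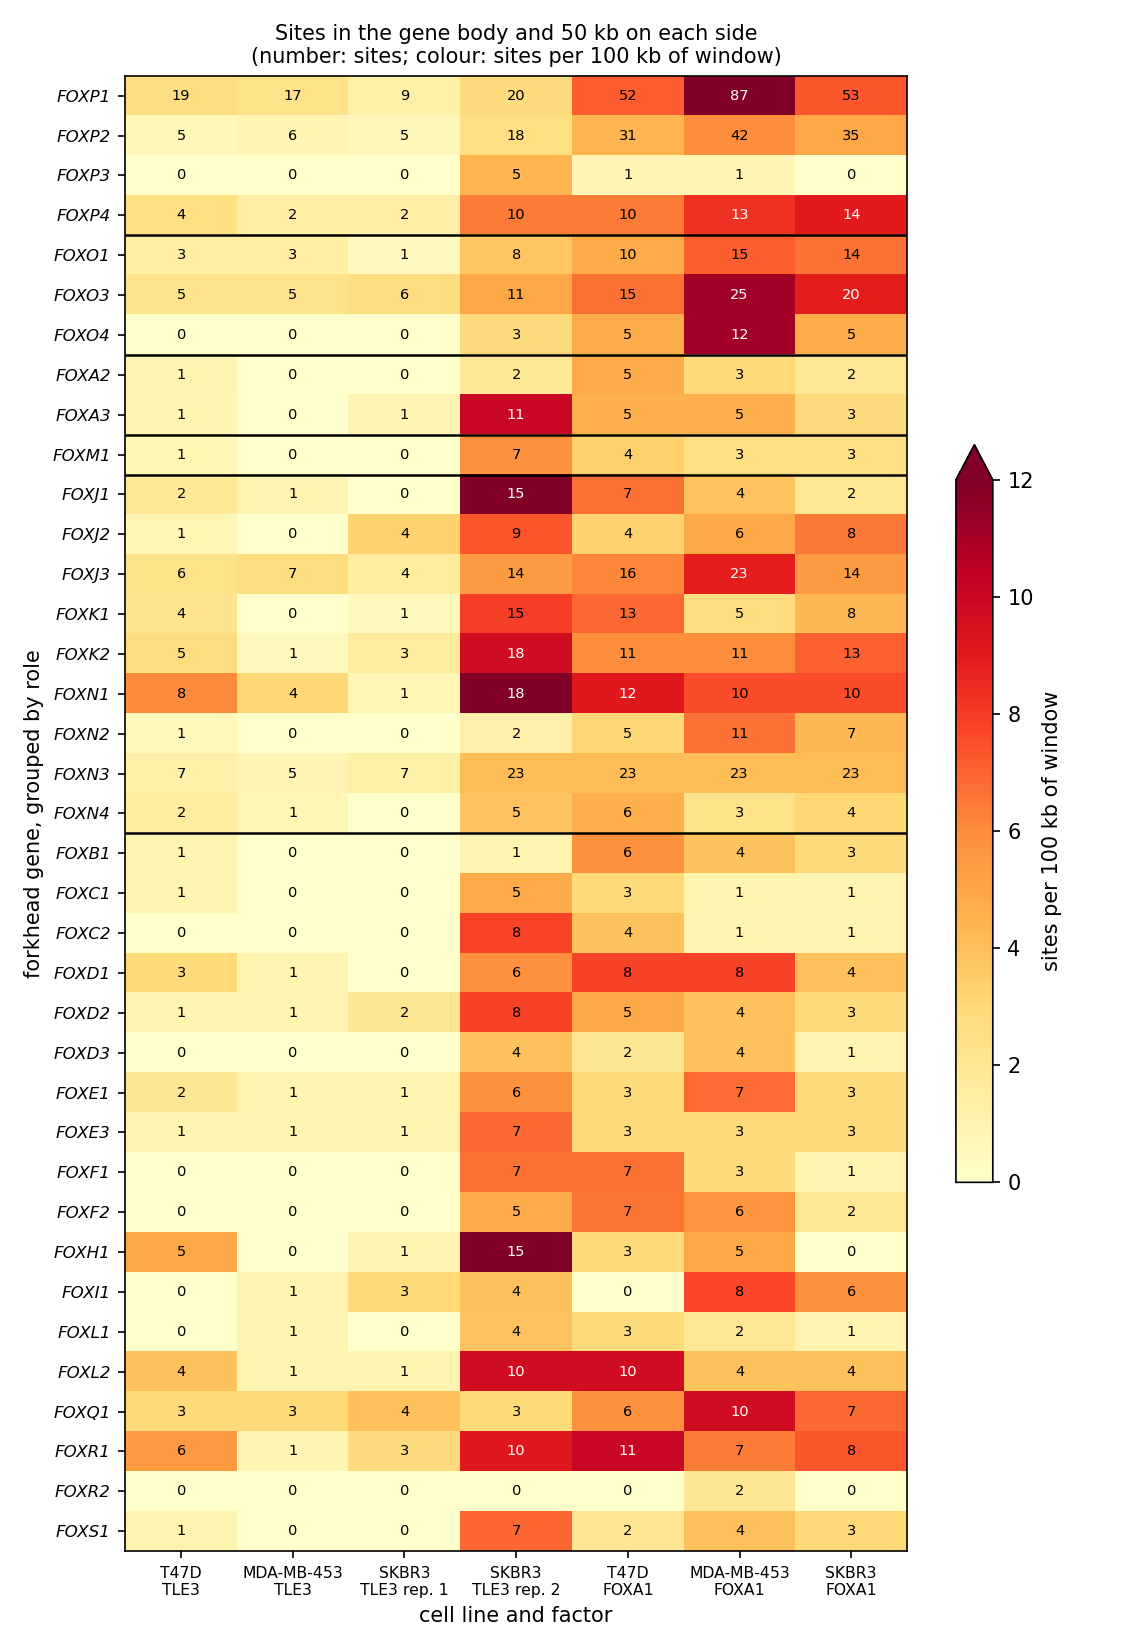
Sites of each forkhead gene (rows, grouped by role) in each line and factor (columns), with the number of sites in each cell and sites per 100 kb of window as colour. FOXP1, the longest of the members, has the most sites of both factors in T47D, with 19 TLE3 and 52 FOXA1 sites, while FOXR2 has sites in 1 column.

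The FOXP genes, which encode repressors, held the locus with the most sites of both factors in T47D and MDA-MB-453. FOXP1 (chr3:70954708-71583978) had 19 TLE3 sites in T47D, 17 in MDA-MB-453 and 9 in SKBR3 replicate 1, with 2 when both SKBR3 replicates were required. It had 52 FOXA1 sites in T47D, 87 in MDA-MB-453 and 53 in SKBR3. All of these TLE3 sites at FOXP1 overlapped a FOXA1 site of the same line, while 10 of the 20 in SKBR3 replicate 2 alone did. Of the T47D TLE3 sites, 7 were TLE3 sites in all 3 lines with SKBR3 taken from replicate 1 (36.8%), against 22.4% of all T47D TLE3 sites. Of the T47D FOXA1 sites, 33 were FOXA1 sites in all 3 lines (63.5%), against 39.5% of all and 52.4% of those at all members. In MDA-MB-453 it was 32 of 87 (36.8%), against 32.7% of all, and in SKBR3 31 of 53 (58.5%), against 49.1%.

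Sites at FOXP1 were spread over the gene. From 330 to 630 kb into the body there were 11 TLE3 sites in T47D, 9 in MDA-MB-453 and 5 in SKBR3 replicate 1. From 210 to 330 kb there was no TLE3 site in these 3 lists, and FOXA1 had 1 site there in T47D, 5 in MDA-MB-453 and none in SKBR3. The first 10 kb held 7 FOXA1 sites in MDA-MB-453 and 1 each in T47D and SKBR3. Beside the FOXP1 start itself, TLE3 sites lay at chr3:71583546-71584336 in T47D and chr3:71583602-71584263 in MDA-MB-453. The highest ranked TLE3 site of FOXP1 was in MDA-MB-453, inside the gene body at chr3:71195236-71196025. By the authors' score it stood at percentiles 98.4 and 98.1 of the replicates' lists.

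**Figure D3:**
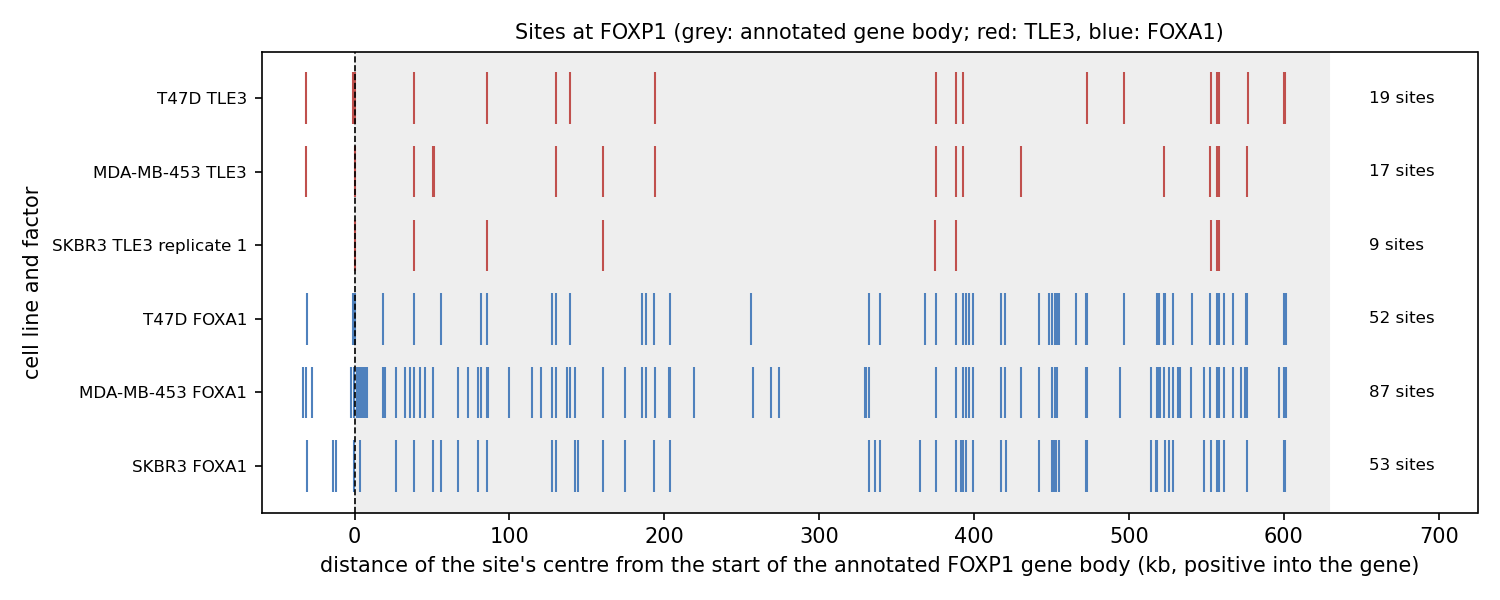
Sites at FOXP1 by distance of their centre from the start of the annotated gene body (horizontal axis, kb, positive into the gene), 1 row per line and factor, TLE3 in red and FOXA1 in blue. The T47D TLE3 row has 19 sites and the T47D FOXA1 row 52, and no TLE3 site of T47D, MDA-MB-453 or SKBR3 replicate 1 lies between 210 and 330 kb.

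FOXP2 (chr7:114086327-114693765), as long a gene, had fewer TLE3 sites, with 5 in T47D, 6 in MDA-MB-453 and 5 in SKBR3 replicate 1 (2 with both replicates required). It had 31 FOXA1 sites in T47D, 42 in MDA-MB-453 and 35 in SKBR3. A TLE3 site in T47D was centred 95 bp before the FOXP2 start printed above, at percentiles 89.1 and 94.1. FOXP4 had 4 TLE3 sites in T47D, 2 in MDA-MB-453 and 2 in SKBR3 replicate 1 (1 with both). One of those in T47D, at chr6:41545644-41546585, was centred 266 bp before its start and overlapped no FOXA1 site. FOXP3, which defines regulatory T cells, had 1 FOXA1 site in T47D, 1 in MDA-MB-453 and none in SKBR3.

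Of the FOXO genes, FOXO3 (chr6:108559825-108684774) had 5 TLE3 sites in T47D, 5 in MDA-MB-453 and 6 in SKBR3 replicate 1 (3 with both). A TLE3 site 2822 bp before its start in MDA-MB-453 (chr6:108556680-108557326) stood at percentiles 95.1 and 94.2 and was shared with T47D and SKBR3 replicate 1. FOXO1 had 3 TLE3 sites in T47D, 3 in MDA-MB-453 and 1 in SKBR3 replicate 1 (0 with both). Of the 3 in T47D, 1 overlapped FOXA1, while all 3 in MDA-MB-453 did. FOXO4 had no TLE3 site, and 5, 12 and 5 FOXA1 sites.

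The close relatives of FOXA1 had few sites. FOXA2, a pioneer factor of endoderm, had 1 TLE3 site in T47D and none in the other two lines. FOXA3, a liver factor, had 1 in T47D, none in MDA-MB-453 and 1 in SKBR3 replicate 1 (0 with both). FOXA1 sites at FOXA2 numbered 5 in T47D, 3 in MDA-MB-453 and 2 in SKBR3, and at FOXA3 5, 5 and 3. FOXM1, which drives mitotic genes, had 1 TLE3 site in T47D, none elsewhere, and 4, 3 and 3 FOXA1 sites. FOXC1, a mesenchymal and basal-type factor, likewise had 1 TLE3 site, in T47D at chr6:1641288-1641762, with no FOXA1 site under it. It had 3 FOXA1 sites in T47D, 1 in MDA-MB-453 and 1 in SKBR3.

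All 9 FOXK, FOXN and FOXJ genes had a TLE3 site in T47D, against 74.7% of the other protein-coding genes. In MDA-MB-453 6 had one (66.7%), against 55.3%, and in SKBR3 replicate 1 6 (66.7%), against 57.3%, with 5 when both replicates were required. All of them but FOXJ1 and FOXJ2 are longer than the other genes' median body, so these shares are not matched for gene length. Among the other long genes, TLE3 sites were at 81.4% in T47D, 66.4% in MDA-MB-453 and 65.5% in SKBR3 replicate 1. All 9 had FOXA1 sites in each line. Of the 18 developmental factors, 11 had a TLE3 site in T47D (61.1%), against 74.7% of the other protein-coding genes. In MDA-MB-453 9 had one (50%), against 55.3%, and in SKBR3 replicate 1 8 (44.4%), against 57.3%, with 5 when both replicates were required. All 18 are shorter than the other genes' median body. Among the other short genes, TLE3 sites were at 68.0% in T47D, 44.2% in MDA-MB-453 and 49.1% in SKBR3 replicate 1. The other genes' share with both replicates was 35.2%, and these shares were not tested. FOXN3, a checkpoint-linked repressor, had the highest ranked TLE3 site of all members. It lay in the gene body at chr14:89175859-89176668, at percentiles 99.4 and 99.7 in MDA-MB-453, and was a site in T47D (percentiles 87.6 and 95.0) and SKBR3 (98.9 and 95.3). FOXJ3 had a site 4430 bp before its start in T47D (chr1:42339803-42340817), at percentiles 98.4 and 99.1, also present in MDA-MB-453 and SKBR3 replicate 1. Both FOXQ1 and FOXD2, developmental factors, had highly ranked sites outside their bodies. At FOXQ1 a TLE3 site 15913 bp before the start (chr6:1295364-1297006) stood at percentiles 98.7 and 97.2 in MDA-MB-453. At FOXD2 one 40084 bp after the start (chr1:47477324-47478931) stood at 97.2 and 98.6 in T47D. The FOXD2 site was a TLE3 site in all 3 lines, while in SKBR3 the FOXQ1 site was present in replicate 1 alone. FOXN1, the thymic epithelial factor, had the most TLE3 sites per 100 kb of the members in T47D (6.04) and MDA-MB-453 (3.02). In SKBR3 replicate 1 it had 0.754, and FOXQ1 the most (3.90). The FOXN1 window also holds 5 other protein-coding genes, and 1 of its 4 TLE3 sites in MDA-MB-453 lay in the body. In T47D 3 of its 8 TLE3 sites did. Of these 8 sites in T47D, 2 overlapped no FOXA1 site. One of these, at chr17:28527800-28528348 in the body, stood at percentiles 74.5 and 91.8.

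TLE3 sites at members overlapped FOXA1 sites about as often as TLE3 sites elsewhere. They did so for 91 of 103 sites in T47D (88.3%), against 87.0% of all TLE3 sites, and for 62 of 63 in MDA-MB-453 (98.4%), against 99.3%. In SKBR3 replicate 1 it was 51 of 59 (86.4%), against 93.5%, and with both SKBR3 replicates 23 of 27 (85.2%), against 91.2%. In SKBR3 replicate 2 alone it was 73 of 305 (23.9%), against 21.7%. Conversely, 94 of 311 FOXA1 sites at members overlapped TLE3 in T47D (30.2%), against 21.9% of all FOXA1 sites. In MDA-MB-453 it was 61 of 379 (16.1%), against 15.8%, and in SKBR3, with TLE3 replicate 1, 49 of 285 (17.2%), against 20.9%. No test was made of these shares.

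The difference between the factors was tested by limma on log2 (peaks in the window per 10000 peaks of the list + 0.5), over 18678 genes with at least 12 peaks in 11 libraries, with Benjamini-Hochberg adjustment and a threshold of 0.05. FOXR2 did not reach 12 peaks, so 36 members were tested. Averaged over the lines, 17 of 36 differed between TLE3 and FOXA1 (47.2%), beside 42.6% of all genes tested. In 8 the share of peaks was higher for TLE3 (17.4% of all genes) and in 9 lower (25.1%). The lower ones include FOXF1 and FOXC2, whose windows overlap, so their calls are not independent. The members' median difference was −0.08 and that of all genes −0.09. In the fit with all 12 libraries, 4 members differed (FOXB1, FOXD2, FOXN2 and FOXP2), beside 10.6% of all genes. Of the 9 lower members, 8 had at least 1 TLE3 library without a peak, and their fitted difference depends on the value added before the logarithm.

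Of the called members, FOXP2, FOXJ3, FOXN3 and FOXO3 had the most FOXA1 peaks in a library (59, 32, 30 and 29). FOXN3 was higher for TLE3 by 0.37 ± 0.13 (SE, adjusted p = 0.0461 by limma), and was not called with 12 libraries (adjusted p = 0.193). FOXN2 had the lowest difference of the members. It had at most 2 TLE3 peaks in a library and none in 2 of 5, so its size depends on the value added before the logarithm. At FOXN2 there were 1 and 2 TLE3 peaks in T47D, 1 and 0 in MDA-MB-453 and 0 in SKBR3 replicate 1. FOXA1 had 10 and 5 peaks there in T47D, 15 and 12 in MDA-MB-453 and 8 and 9 in SKBR3. As shares, TLE3 averaged 0.178 ± 0.167 peaks per 10000 (SD, n = 5) and FOXA1 0.685 ± 0.176 (SD, n = 6), without overlap between the libraries. The limma difference was −0.89 ± 0.14 (SE, adjusted p = 0.00125), and it was called in all 19 alternative fits run for FOXN2, the 12-library fit included (adjusted p = 0.0144).

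At FOXP2 the TLE3 libraries held 6 and 15 peaks in T47D, 7 and 6 in MDA-MB-453 and 5 in SKBR3 replicate 1, and the FOXA1 libraries 40 and 38, 59 and 45, and 48 and 49. This was 2.22 ± 0.40 per 10000 for TLE3 (SD, n = 5) and 3.33 ± 0.80 for FOXA1 (SD, n = 6), and the libraries' shares overlapped. The limma difference was −0.47 ± 0.11 (SE, adjusted p = 0.00736). FOXO3 went the other way. It held 7 and 13 TLE3 peaks in T47D, 10 and 5 in MDA-MB-453 and 6 in SKBR3 replicate 1, or 2.36 ± 0.280 per 10000 (SD, n = 5), against 1.69 ± 0.398 for FOXA1 (SD, n = 6). Its difference of 0.44 ± 0.08 (SE, adjusted p = 0.00228) was not called with 12 libraries (adjusted p = 0.282) and was −0.07 in equally long lists. SKBR3 TLE3 replicate 2 held 11 peaks there, or 1.17 per 10000.

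FOXJ3 was likewise higher for TLE3, with 2.19 ± 0.562 peaks per 10000 (SD, n = 5), against 1.48 ± 0.173 for FOXA1 (SD, n = 6), a limma difference of 0.40 ± 0.09 (SE, adjusted p = 0.00769). With 12 libraries its adjusted p was 0.0634, and in equally long lists its difference was −0.28. FOXQ1, an epithelial and mucosal factor, had the largest positive difference among the members, 0.58 ± 0.13 (SE, adjusted p = 0.00661 by limma), with 3 to 5 TLE3 peaks per library. With 12 libraries its adjusted p was 0.395, and within 10 kb its difference was −0.25. For FOXP1 the limma difference was 0.01 ± 0.11 (SE, adjusted p = 0.927) and was not called. FOXM1 and FOXA2 were among the 9 lower members, with differences of −0.49 and −0.43 by limma. Their TLE3 libraries held 0 to 3 and 0 to 1 peaks, and neither was called with 12 libraries (adjusted p = 0.447 and 0.131).

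**Figure D4:**
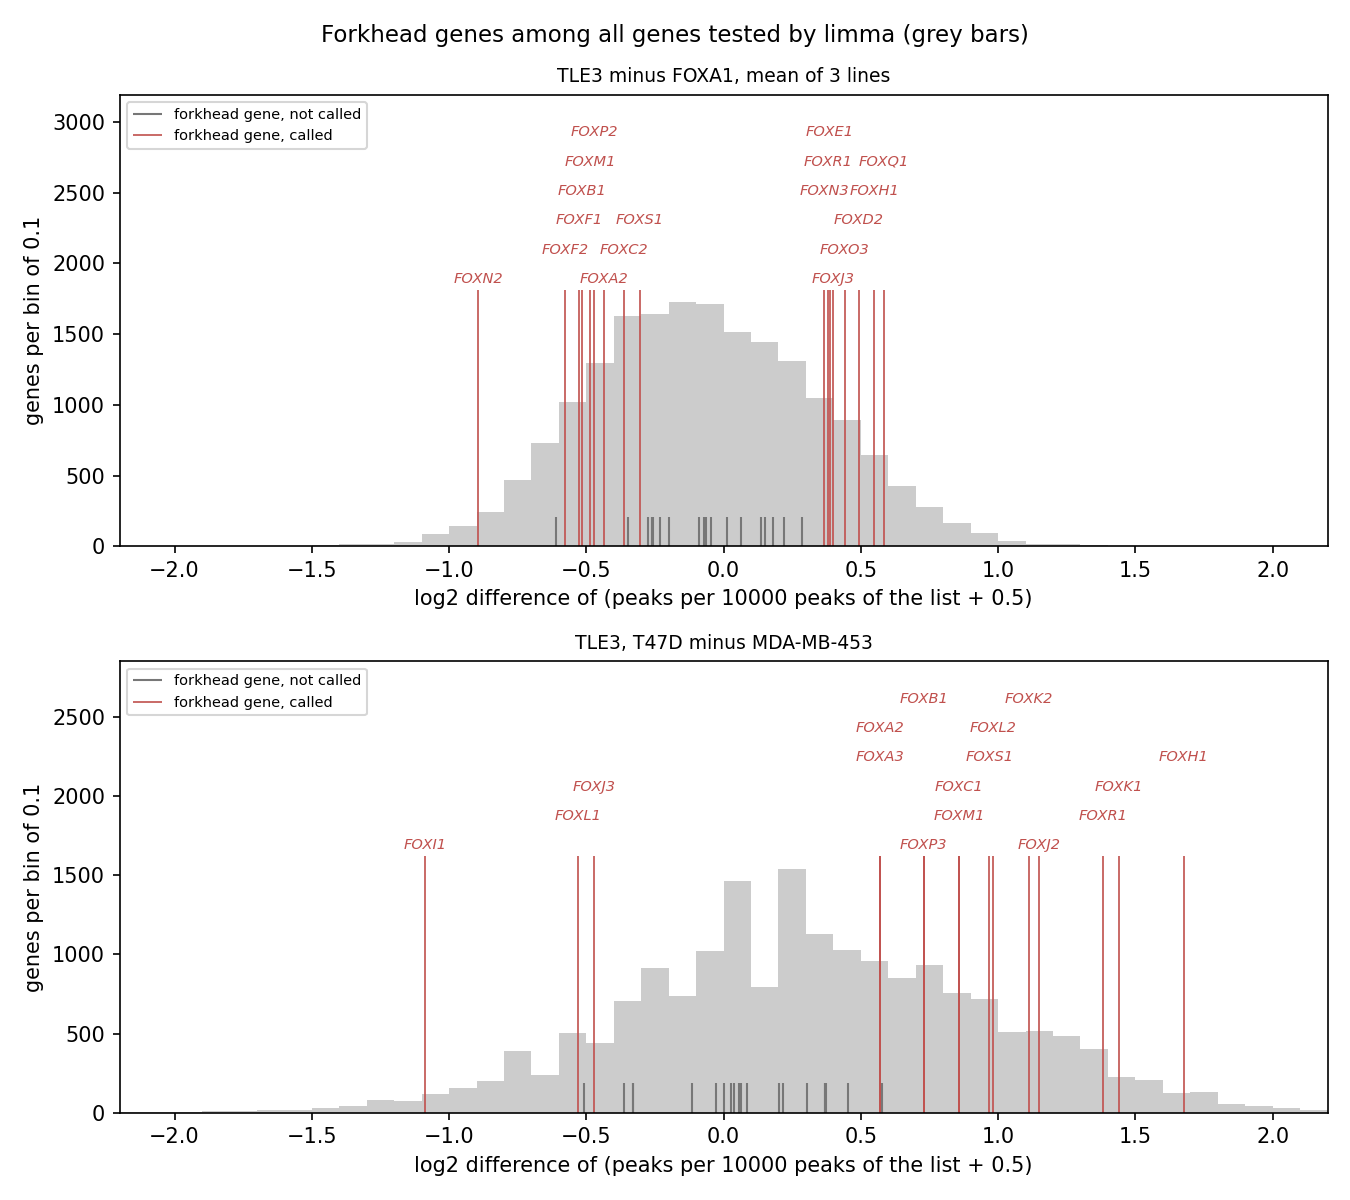
Number of genes per bin of 0.1 (vertical axis, grey bars, 18678 genes) by log2 difference in peaks per 10000 + 0.5 (horizontal axis), for TLE3 minus FOXA1 over 3 lines (top) and for TLE3 in T47D minus MDA-MB-453 (bottom), with the 36 tested forkhead genes as lines, red where called. FOXN2 lies lowest at −0.89 in the top panel, and FOXH1 highest at 1.68 in the bottom panel.

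Between the lines, FOXA1 differed at few members. In T47D against MDA-MB-453, 1 of 36 was called (2.78%), beside 3.35% of all genes, and it was lower (1.55% of all genes). In MDA-MB-453 against SKBR3 it was 1 (2.78%), beside 14.6%, again lower (8.23%). In T47D against SKBR3 there were 7 (19.4%), beside 12.4%, with 3 higher (6.31% of all genes) and 4 lower (6.13%). Of the higher ones, FOXF1 and FOXC2 have overlapping windows, so their calls are not independent. The SKBR3 peaks in both windows stood at the same percentiles (33.3 and 19.3 in replicates 1 and 2). With 12 libraries limma called 0 members in each of these comparisons, in that order (0.111%, 1.6% and 0.658% of all genes), with 3, 1 and 4 members at an unadjusted p under 0.05. The share of all genes under that unadjusted threshold was not counted in the 12-library fit. Such counts, here and for the interaction below, therefore have no background beside them.

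FOXF1, a mesenchymal lung and gut factor, was the member most above SKBR3. FOXA1 gave 7 and 9 peaks there in T47D, against 1 and 1 in SKBR3, a limma difference of 0.82 ± 0.15 (SE, adjusted p = 0.00951). FOXI1, a factor of ionocytes and acid-secreting cells, was the member lower in T47D in both of its comparisons. FOXA1 gave 0 and 2 peaks there in T47D, against 10 and 8 in MDA-MB-453 and 9 and 7 in SKBR3. The T47D libraries lay below those of both other lines. The limma difference was −0.87 ± 0.20 from MDA-MB-453 (SE, adjusted p = 0.0454) and −1.11 ± 0.20 from SKBR3 (SE, adjusted p = 0.00841). TLE3 gave 0 and 0 peaks there in T47D, 3 and 1 in MDA-MB-453 and 3 in SKBR3 replicate 1. Its difference from MDA-MB-453, −1.09 ± 0.20 (SE, adjusted p = 0.00216), rests on at most 3 peaks in a library. One TLE3 site beside FOXI1, at chr5:170136014-170136647 in MDA-MB-453, was present in SKBR3 replicate 1 and not when both SKBR3 replicates were required.

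FOXO3 held 1.29 and 1.21 FOXA1 peaks per 10000 in T47D, against 2.14 and 2.06 in SKBR3, and FOXP2 2.72 and 2.55 in T47D, against 4.46 and 4.20 in SKBR3. Both were lower in T47D, with differences of −0.57 ± 0.13 (SE, adjusted p = 0.02 by limma) and −0.62 ± 0.17 (SE, adjusted p = 0.0458), the second being 0.18 in equally long lists. FOXO1 was lower as well (−0.48 ± 0.14, SE, adjusted p = 0.0473). FOXK2, which shares targets with FOXO factors, held 0.705 ± 0.0194 FOXA1 peaks per 10000 in MDA-MB-453, against 1.38 ± 0.0169 in SKBR3 (SD, n = 2 each), a limma difference of −0.64 ± 0.16 (SE, adjusted p = 0.0241). These calls, and those of FOXF1 and FOXI1 for FOXA1, were each lost on leaving out any 1 of the 4 FOXA1 libraries compared. FOXP1 had 58 and 64 FOXA1 peaks in T47D, against 107 and 96 in MDA-MB-453, and this difference of −0.49 ± 0.17 was not called (SE, adjusted p = 0.159 by limma).

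TLE3 differed between T47D and MDA-MB-453 at 16 of 36 members (44.4%), beside 42.7% of all genes. In 13 it was higher in T47D (33.7% of all genes) and in 3 lower (8.96%). The members' median difference was 0.34 and that of all genes 0.29, so changes are read against this shift. Of the 16, 9 had at most 5 peaks in any library compared, FOXA2, FOXA3, FOXC1 and FOXM1 among them, each with 1 to 3 peaks in T47D and none in MDA-MB-453. With 12 libraries 8 of them were called, beside 18.9% of all genes. The interaction of line and factor, chosen after seeing the data, was called at 5 members (13.9%), beside 12.9% of all genes, all 5 higher (11.6%). No member was called on leaving out any 1 of the 4 FOXA1 libraries of these lines, and with 12 libraries limma called no gene (0%), with 4 members at an unadjusted p under 0.05.

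FOXH1, which carries nodal and activin signals, had the highest of these differences among the members. Its window had 5 and 11 TLE3 peaks in T47D, against 2 and 0 in MDA-MB-453, and FOXA1 had 6 and 4 in T47D, against 13 and 5 in MDA-MB-453. The TLE3 difference was 1.68 ± 0.31 (SE, adjusted p = 0.00242 by limma). The window also holds 13 other protein-coding genes, so the peaks cannot be given to FOXH1 itself. FOXK1, a nutrient-responsive repressor, had 4 and 6 TLE3 peaks in T47D, against 1 and 0 in MDA-MB-453, a limma difference of 1.44 ± 0.22 (SE, adjusted p = 0.00102). At FOXK2 there were 5 and 12, against 3 and 1 (1.11 ± 0.16, SE, adjusted p = 0.00058). FOXR1 had 8 and 9, against 2 and 1 (1.38 ± 0.22, SE, adjusted p = 0.00108). In these 4 the T47D libraries lay above the MDA-MB-453 libraries, and all were called with 12 libraries. FOXJ3 was lower in T47D, with 1.99 and 1.63 peaks per 10000, against 2.34 and 3.08 in MDA-MB-453 (−0.47 ± 0.15, SE, adjusted p = 0.029), and this call was lost with 12 libraries (adjusted p = 0.106).

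**Figure D5:**
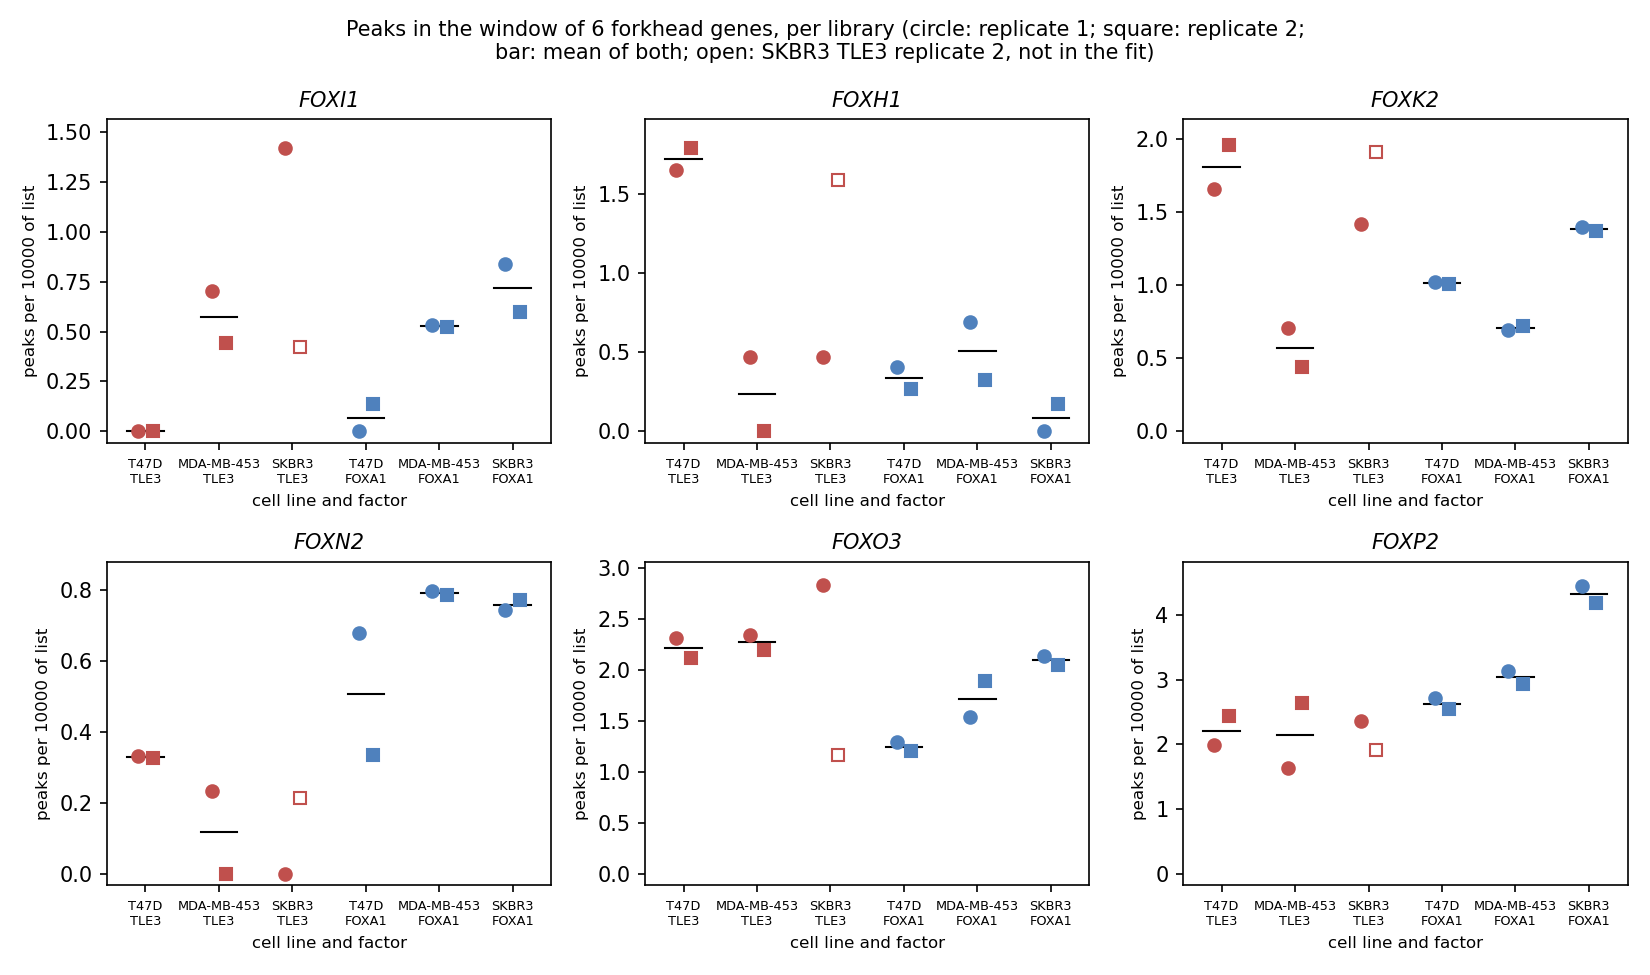
Peaks in the window per 10000 peaks of each library's list (vertical axis) for 6 forkhead genes, by line and factor (horizontal axis), with circles for replicate 1, squares for replicate 2, bars for the mean of both and the open symbol for SKBR3 TLE3 replicate 2. FOXI1 is near 0 in T47D for both factors, and FOXH1 TLE3 is higher in T47D, with 5 and 11 peaks, than in MDA-MB-453, with 2 and 0.

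Genes upstream and downstream of the members were counted in the same fit, from lists chosen with earlier results known. Of 15 genes of the PI3K and AKT pathway that restrains FOXO factors, 4 had a higher and 3 a lower share of peaks for TLE3 than for FOXA1 (17.4% and 25.1% of all genes), with a median of −0.04. In T47D against MDA-MB-453 TLE3 was higher at 7 of the 15 and lower at none, beside 33.7% of all genes higher and 8.96% lower, with a median of 0.47 against 0.29 for all genes. All 15 had a TLE3 site in T47D, against 74.7% of other protein-coding genes. There were 12 each in MDA-MB-453 (55.3%) and SKBR3 replicate 1 (57.3%), with 8 when both SKBR3 replicates were required (35.2%). Gene length was not matched in these shares. Of 10 mitotic targets of FOXM1, 2 were higher and 2 lower for TLE3 than for FOXA1, beside the same 17.4% and 25.1%. TLE3 was higher in T47D than in MDA-MB-453 at 4 of the 10 and lower at none, beside 33.7% and 8.96% of all genes, with a median of 0.52.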

How the data were processed

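Peak lists of 12 ChIP-seq libraries were used, 2 replicates for each of 6 groups of line and factor, and 6 input samples were not analysed here. Reads were handled with MACS2, SAMtools, BWA 0.7.5a and Trim Galore against hg38, per the submitters' processing notes. For the peak caller, settings are not stated by the labels. The score that the authors deposited with each peak is not named, and served only for ranks and cuts inside 1 list. Of 1134209 peaks, 15 lay off the chromosomes used and were left out. The lists give no reads or summits, so depth is unknown and a peak's centre stands for its position.

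Genes and promoter windows came from RefSeq (GRCh38.p14), without exons, so places are given as gene body or flank. Sites are merged regions with a peak of both replicates, overlap means at least 1 bp, and counts used windows of 50 kb and 10 kb. Differences were fitted with limma 3.58.1 (R 4.3.3, trended variance, group means) on log2(peaks per 10000 + 0.5) over 11 libraries, leaving out SKBR3 TLE3 replicate 2. Genes needed 12 peaks in sum, and the Benjamini-Hochberg threshold was 0.05. The labels call the libraries biological replicates and say no more of their origin. The fit was run on simulated peaks with Poisson spread alone, with 4-fold changes planted in 200 genes that had many peaks. It called 99% of these and 0.424% of the other genes. The simulation cannot show how the fit does at genes with few peaks or with a larger spread between replicates. Python 3.11.15 was used for counting.

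Genes were named when on a short list of known breast or FOXA-related members, called in a comparison, among the 6 highest by site density or by rank of the best TLE3 peak, or bearing sites in 1 line alone. Members and lists were chosen with earlier results of these data known. Alternatives changed the window, the value added before the logarithm, the filter, list length, score cut, overlap, replicate rule, libraries and replicate block.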

Additional observations from a re-analysis of the deposited data

Results flagged for a closer look

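At 5 of 36 members tested the difference between TLE3 and FOXA1 was itself different in T47D and MDA-MB-453, in a limma interaction chosen after seeing the data, beside 12.9% of all genes tested. Each was positive in 11 libraries and full lists, meaning a larger T47D excess over MDA-MB-453 for TLE3 than for FOXA1. The direction was not kept for FOXK2 in equally long lists (-0.73) or in the upper 50% of each list (-0.35). In equally long lists, 2 of 15 members tested were called, both lower (FOXO1 -1.37 and FOXP2 -1.16). Neither is among the 5 members called in the main fit, so they do not show whether those kept their direction. Of all 9272 genes tested there, 2040 were called, 1299 higher and 741 lower. In 11 libraries and full lists the median of all genes was 0.26. The interaction was 1.93 for FOXH1 (adjusted p = 0.0234), 1.40 for FOXJ2 (0.0341), 1.13 for FOXR1 (0.0422), 0.90 for FOXS1 (0.0412) and 0.79 for FOXK2 (0.0453). FOXJ2 had 1 and 6 TLE3 peaks in T47D and 0 and 0 in MDA-MB-453, and 7 and 4 FOXA1 peaks in T47D and 10 and 8 in MDA-MB-453. FOXS1 had at most 4 peaks in any of these libraries. With 12 libraries limma called 0 genes of all tested and 0 members, with 4 of 36 members at an unadjusted p under 0.05. The share of all genes under that unadjusted threshold was not counted. Within 10 kb 24 members were tested, and with at least 60 peaks 14. No member was called without any 1 of the 4 T47D and MDA-MB-453 FOXA1 libraries, 1 without MDA-MB-453 TLE3 replicate 2 or either SKBR3 FOXA1 library, 1 within 10 kb, 1 with at least 60 peaks and 3 with the replicate block.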

How the results depend on the processing

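Depth is unknown, and list length limits every count. Members with a site, within 10 kb, numbered 18 for T47D TLE3, 10 for MDA-MB-453 TLE3 and 8 for SKBR3 TLE3, against 28, 20 and 14 within 50 kb. For SKBR3 TLE3 the share of all genes within 10 kb was 19.4%. In the other settings below, member counts stand without the other genes' shares. They show how the counts move, and do not compare members with other genes. In the upper 50% of each list by score they numbered 13 for MDA-MB-453 TLE3 and 3 for SKBR3 TLE3. In equally long lists they numbered 5 for SKBR3 TLE3, 20 for MDA-MB-453 FOXA1 and 19 for SKBR3 FOXA1. A peak of either replicate gave 36 for SKBR3 TLE3. Leaving out 1 replicate gave 29 to 34 for T47D TLE3, 20 to 27 for MDA-MB-453 TLE3, 20 to 36 for SKBR3 TLE3 (36 without replicate 1), 35 to 36 for T47D FOXA1, 37 to 37 for MDA-MB-453 FOXA1 and 34 to 35 for SKBR3 FOXA1. The median of members in sites per 100 kb was 0.983 for T47D TLE3, with 2.89 for either replicate and 0.987 to 2.89 leaving out 1. For MDA-MB-453 TLE3 it was 0.762, with 0 at 10 kb, 0.497 at 100 kb, 0.989 for either replicate, 0 in the upper 50%, 0 in equal lists and 0.762 to 0.989 leaving out 1. For SKBR3 TLE3 it was 0, with 6.17 for either replicate and 0.529 to 5.40 leaving out 1. For T47D FOXA1 it was 4.64, with 6.67 at 10 kb, 6.64 for either, 2.79 in the upper 50%, 0.966 in equal lists and 5.33 to 5.70 leaving out 1. For MDA-MB-453 FOXA1 it was 4.57, with 7.55 for either, 2.28 in the upper 50%, 0.474 in equal lists and 4.88 to 7.31 leaving out 1. For SKBR3 FOXA1 it was 3.05, with 4.41 at 10 kb, 3.64 at 100 kb, 4.91 for either, 1.94 in the upper 50%, 0.529 in equal lists and 4.57 to 4.83 leaving out 1. The percent of TLE3 sites at members that overlap FOXA1 was 72.1 in T47D in equal lists and 73.4 to 94.2 leaving out 1. In MDA-MB-453 it was 95.7 for either replicate, 66.7 in equal lists and 93.8 to 98.4 leaving out 1. In SKBR3 it was 36.5 for either and 23.9 to 92.6 leaving out 1, lowest without replicate 1.

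The counts of calls below have different bases, because fewer genes passed the filter in some settings. The main fit tested 18678 genes and 36 members. Within 10 kb it was 13811 and 24, in equal lists 9272 and 15, in the upper 50% 15866 and 29, and with at least 60 peaks 9017 and 14. For TLE3 minus FOXA1, 42.6% of all genes tested were called, with 40.6% at 10 kb, 40.5% in equal lists and 46.4% at 60 peaks. Limma calls for TLE3 minus FOXA1 were 7951 genes and 17 members. They were 8 members at 10 kb, 3752 genes and 5 members in equal lists, 2022 and 4 with 12 libraries, 4187 and 7 with at least 60 peaks (chosen after seeing the data), and 5608 to 9763 genes and 10 to 19 members leaving out 1 library. The lowest member counts, 10 or 11, came without MDA-MB-453 FOXA1 replicate 1 or any 1 of the SKBR3 and T47D FOXA1 libraries. Of the calls, 3259 genes were higher and 4692 lower, with 2390 and 1797 at 60 peaks, 1334 and 688 with 12 libraries and 1977 and 1775 in equal lists. The median of all genes was −0.29 with 0.1 added and −0.22 in the upper 50%. For FOXA1 in T47D minus MDA-MB-453, calls were 626 and 1. They were 359 and 0 at 10 kb, 407 and 0 with 0.1 added, 2 members without filter, 3430 and 7 in equal lists, 21 and 0 with 12 libraries, 0 members at 60 peaks, and 5 to 1722 and 0 to 5 leaving out 1. For T47D minus SKBR3 they were 2323 and 7, with 1228 and 1 at 10 kb, 3967 genes in equal lists, 2 members in the upper 50%, 125 and 0 with 12 libraries, 1528 and 3 at 60 peaks, and 209 to 3867 and 0 to 9 leaving out 1. No member was left without any 1 of the T47D and SKBR3 FOXA1 libraries, and 4 without either MDA-MB-453 FOXA1 library. For MDA-MB-453 minus SKBR3 they were 2723 and 1, with 1579 and 2 at 10 kb, 2 members each with 0.1 added, without filter and in the upper 50%, 4145 and 6 in equal lists, 304 and 0 with 12 libraries, and 289 to 4422 and 0 to 5 leaving out 1. Without any 1 FOXA1 library, neither this comparison nor T47D minus MDA-MB-453 had a member called. For TLE3 in T47D minus MDA-MB-453, calls were 7975 and 16, with 4782 and 6 at 10 kb, 4286 and 5 in equal lists, 5309 and 7 in the upper 50%, 3590 and 8 with 12 libraries, 4200 and 4 at 60 peaks, and 6614 to 8926 and 14 to 19 leaving out 1. For the interaction of factor and line, chosen after seeing the data, calls were 2411 and 5, with 1306 and 1 at 10 kb, 3 members with 2 added, 2 in equal lists and 2 in the upper 50%, 0 and 0 with 12 libraries, 949 and 1 at 60 peaks, 3 members with the replicate block, 0 and 0 with 12 libraries and the block, and 0 to 5355 and 0 to 10 leaving out 1. Without 1 library, genes called were 0 (T47D FOXA1 replicate 2), 12 and 379 (MDA-MB-453 FOXA1 replicates 1 and 2) and 515 (T47D FOXA1 replicate 1). FOXK2 reversed to -0.73 in equal lists and -0.35 in the upper 50%. Where leaving out a library left 1 in a group, that library was assumed to vary like the other groups. The replicate numbers do not pair the libraries: over 15 pairs of groups the deviations correlated by −0.16 to 0.23, with 1 above 0.1. With the replicate block, FOXA1 calls in T47D minus MDA-MB-453 were 413 and 0, and 4 members in T47D minus SKBR3 and 2 in MDA-MB-453 minus SKBR3. With 12 libraries and the block, calls were 1744 and 2 for TLE3 minus FOXA1, 9 and 0, 45 and 0, and 182 and 0 for the 3 FOXA1 comparisons, and 3241 and 7 for TLE3. Of 873 alternative values for 47 gene results, 592 kept direction and call, 271 lost the call and 10 reversed. Results whose gene fell under the filter in a setting, or whose comparison lost its group, have no value there and are not counted. In equally long lists 7 kept the call, 7 lost it and 4 reversed. Within 10 kb the counts were 10, 16 and 3. For TLE3 minus FOXA1 the reversed values were -0.0426 for FOXD2, −0.25 for FOXQ1 and −0.16 for FOXR1 at 10 kb, −0.42 for FOXE1 and −0.13 for FOXR1 in the upper 50%, and −0.28 for FOXJ3 and -0.0735 for FOXO3 in equal lists. FOXA1 at FOXP2 in T47D minus SKBR3 was 0.18 in equal lists. The cause was not tested.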
